A study of Rattus norvegicus with 12 samples.

Results

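Transcription factors that set up and keep the endocrine program of pancreatic β-cells were followed in rat islet cells in which mt-tRF-LeuTAA, a fragment of the mitochondrial leucine tRNA, had been silenced. The set was given by gene name, with earlier results of these data known, and held 10 genes: Pdx1, Nkx6-1, Mafa, Neurod1, Rfx6, Nkx2-2, Pax6, Isl1, Foxa2 and Insm1. Of these, 9 were found by gene name among the 13733 detected genes, and Insm1 was not analysed here. The 6 anti-mt-tRF-LeuTAA libraries came from the dispersed islet cells of male Wistar rats aged 3 months, transfected with 30 pmol of a single-stranded antisense oligonucleotide complementary to the fragment. The 6 anti-control libraries came from the same kind of cells given scrambled oligonucleotides with the same transfection reagent. All cells were kept in medium with 11 mM glucose and total RNA was taken 72 h after transfection, so both groups share dissociation, culture and lipofection. Each replicate number stands for the islets of 1 rat, and the same number in both groups was treated as the same rat for the reasons given with the methods. The level of the fragment itself was not analysed here.

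A small set of DNA-binding proteins specifies islet endocrine cells during development and later holds adult β-cells in their mature state. Pdx1, Nkx6-1 and Mafa act mainly in β-cells, where they switch on genes for insulin, glucose sensing and secretion. Neurod1, Rfx6, Nkx2-2, Pax6, Isl1 and Foxa2 work more widely across islet endocrine cells, and several of these factors bind the regulatory DNA of each other's genes. Reduced levels of these factors are known from diabetic islets, and inherited loss of several causes diabetes in humans or mice.

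The sequence just upstream of the start site is shown for the 3 factors that were lower after silencing in all 6 rats and for which a RefSeq promoter was at hand. They were picked by this direction, and a shared control of these genes was not tested. RefSeq promoters of rat build GRCr8, from 250 bases before to 50 bases after the start site, were matched by symbol for 7 of the 10 genes, the others being Mafa, Rfx6 and Insm1. The 250 bases before the start are printed 5′ to 3′ on the strand of the gene, with capitals marking E-boxes (CANNTG), the element bound by basic helix-loop-helix factors such as Neurod1. The stretches are chr3:84770455-84770704 on the minus strand for Neurod1, chr12:12799157-12799406 on the minus strand for Pdx1 and chr14:8273988-8274237 on the plus strand for Nkx6-1.
Neurod1: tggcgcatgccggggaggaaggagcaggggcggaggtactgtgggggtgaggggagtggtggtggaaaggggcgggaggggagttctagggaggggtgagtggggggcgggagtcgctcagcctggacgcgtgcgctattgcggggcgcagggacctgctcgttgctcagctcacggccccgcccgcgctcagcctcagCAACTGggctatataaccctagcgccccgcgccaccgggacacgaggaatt
Pdx1: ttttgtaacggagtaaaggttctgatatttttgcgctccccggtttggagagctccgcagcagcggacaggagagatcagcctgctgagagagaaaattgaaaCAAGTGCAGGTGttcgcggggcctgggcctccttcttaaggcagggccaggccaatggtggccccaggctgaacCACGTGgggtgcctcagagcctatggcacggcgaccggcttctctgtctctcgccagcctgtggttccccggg
Nkx6-1: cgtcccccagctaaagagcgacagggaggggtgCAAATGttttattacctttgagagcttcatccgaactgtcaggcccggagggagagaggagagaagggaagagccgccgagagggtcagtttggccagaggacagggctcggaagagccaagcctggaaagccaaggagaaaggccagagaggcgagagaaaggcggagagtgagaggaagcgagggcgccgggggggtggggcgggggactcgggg
The stretch of Pdx1 held 3 E-boxes, which began 147, 141 and 73 bases before the start site, and the pair farthest upstream lay side by side. That of Neurod1 held 1, beginning 51 bases before the start site, and that of Nkx6-1 held 1, beginning 217 bases before it. In the windows of 300 bases, CANNTG was found in 4 of the 7 matched promoters, the fourth being that of Isl1, and in 72.1% of all 33469 rat promoters. This element was searched after the data had been seen. The other 7 motifs, searched on both strands, were found in 0 of the 7 promoters. Their letters and their shares of all promoters were CATCTG, which CANNTG includes, with 16.6%, TAATTA with 5.36%, TGTTTAC with 3.78%, GTTGCCATG with 0.741%, TGCTGAC with 4.44%, TNAAGTG with 11.5% and TGACGTCA with 1.83%.

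In the coordinates of the deposited table (Rnor_6.0), the β-cell factors lie at chr12:9496044-9501213 (Pdx1), chr14:9555264-9562189 (Nkx6-1) and chr7:116780681-116781766 (Mafa). Of the pan-endocrine factors, 4 lie on chromosome 3: Neurod1 (chr3:66414308-66417741), Pax6 (chr3:95707386-95728624), Nkx2-2 (chr3:141408798-141411170) and Foxa2 (chr3:142383278-142387481). Rfx6 lies at chr20:32717564-32764035 and Isl1 at chr2:48487736-48501436. No member overlapped another gene of the table. Foxa2 is on the plus strand in the table and on the minus strand in RefSeq.

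Some features of the whole series bear on these genes. Reads on the detected genes numbered 16.4 to 23.4 M (mega) per library. The samples showed the markers of islet cells, with Ins1, an insulin gene of the rat, between 15.96 and 16.67 log2 CPM in anti-mt-tRF-LeuTAA libraries and between 15.84 and 16.68 log2 CPM in anti-control libraries. Replicates 1 and 2 stood apart from the others in endothelial markers. In α-cell markers they did so too, except for anti-mt-tRF-LeuTAA replicate 1, which lay within the range of the others. Summed over 4 α-cell markers, anti-mt-tRF-LeuTAA replicates 1 and 2 held 22879 and 4169 CPM, against 2539 and 2556 CPM in anti-control replicates 1 and 2, while the 8 libraries of replicates 3 to 6 held 13525 to 43944 CPM. Summed over 5 endothelial markers, replicates 1 and 2 held 551 and 539.8 CPM with anti-mt-tRF-LeuTAA and 569.8 and 431 CPM with anti-control, and replicates 3 to 6 held 30.4 to 266 CPM. Replicate 1 was also uneven within its pair in 6 β-cell markers, at 153761 CPM with anti-mt-tRF-LeuTAA and 87654 CPM with anti-control. That sum was higher after silencing in 2 of 6 rats. The log2 fold change of each of the 9 factors is given for all 6 replicates and for replicates 3 to 6 alone. That subset was chosen after the data were seen, and other scalings were run on all 6.

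All 9 measured factors had a lower mean level after mt-tRF-LeuTAA silencing, as had 7525 of all 13733 genes. Neurod1 and Pdx1 were lowest relative to the control, by 38.6% and 37.8%, and Foxa2 was the least changed, with a level 16.9% below that of the control. With limma across all 13733 genes and Benjamini-Hochberg adjusted p at or under 0.05, 3 of the 9 (Neurod1, Pdx1, Rfx6) were called lower and 0 higher. Of all genes, 4.65% were called lower and 10.9% higher in this fit. When the replicate number, which stands for the rat, was added as a block, 7 of the 9 were called lower (those 3 with Nkx6-1, Pax6, Isl1 and Foxa2) and 0 higher. The background was then 17.7% of all genes lower and 17.6% higher. At an unadjusted p under 0.05, 0 members were higher in either fit or with limma-voom, and the sign was negative for all 9 under each scaling tried. The median of the members' log2 fold changes was -0.44, against -0.04 over all genes. In this bulk RNA, fewer cells of a type and less RNA per cell cannot be told apart.

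**Figure D1:**
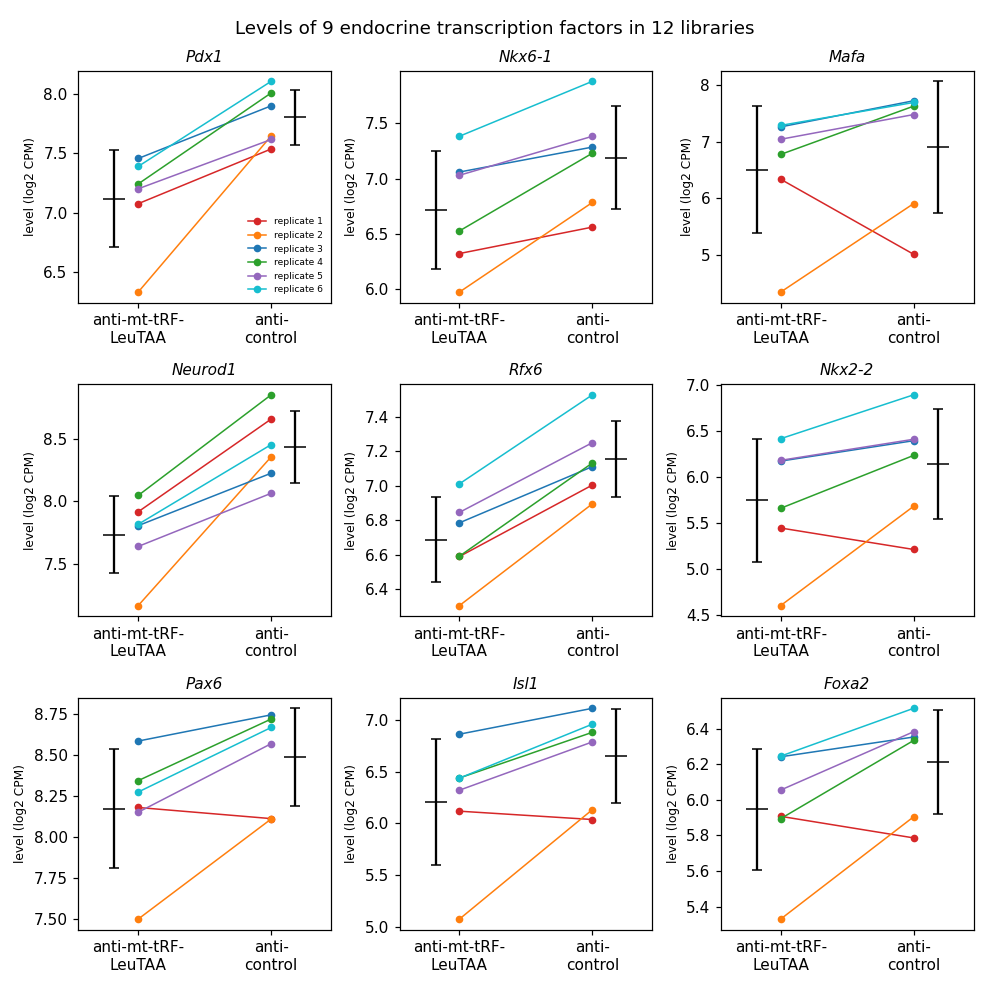
Level (log2 CPM, vertical axis) of the 9 measured factors in the anti-mt-tRF-LeuTAA and anti-control libraries, with a line joining the libraries of 1 replicate number and bars beside them for the mean and SD of each group (n = 6). For Pdx1 and Neurod1 every anti-mt-tRF-LeuTAA library lies under every anti-control library. For Mafa the lines of replicates 1 and 2 lie below the other 4, with replicate 1 nearer to them at its anti-mt-tRF-LeuTAA end.

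Of the β-cell factors, Pdx1, a homeodomain activator of the insulin genes that is also needed for the pancreas to form, was measured at 7.08, 6.33, 7.46, 7.24, 7.20 and 7.39 log2 CPM in anti-mt-tRF-LeuTAA replicates 1 to 6, against 7.54, 7.64, 7.90, 8.01, 7.61 and 8.10 log2 CPM in anti-control replicates 1 to 6. The groups did not overlap, and anti-mt-tRF-LeuTAA replicate 2 lay well under the other 5. Mean levels were 7.12 ± 0.41 log2 CPM with anti-mt-tRF-LeuTAA and 7.80 ± 0.23 log2 CPM with anti-control (SD, n = 6 each). The log2 fold change was -0.68 with an SE of 0.18 (limma adjusted p = 0.0181), and the block narrowed the SE to 0.11 (limma adjusted p = 0.00126). In replicates 3 to 6 alone it was -0.58 (limma adjusted p = 0.0089 without and 0.000396 with the block).

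Nkx6-1 represses the programs of other islet cell types in β-cells and keeps insulin secretion tied to glucose. Its levels were 6.32, 5.98, 7.06, 6.53, 7.03 and 7.38 log2 CPM in anti-mt-tRF-LeuTAA replicates 1 to 6, against 6.56, 6.79, 7.29, 7.23, 7.38 and 7.88 log2 CPM in anti-control replicates 1 to 6. The groups overlapped, with 3 anti-mt-tRF-LeuTAA libraries below the lowest control, yet each rat had the lower level after silencing. The difference within a rat ran between -0.81 and -0.23 on the log2 scale, while the means of the rats spread over 1.25. The log2 fold change of -0.47 missed the threshold without the block (SE 0.26, limma adjusted p = 0.266) and passed it with the block (SE 0.08, limma adjusted p = 0.00214). For replicates 3 to 6 the values were -0.44 and a limma adjusted p of 0.184 without and 0.00242 with the block.

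Mafa, a bZIP activator of insulin transcription that marks mature β-cells, was the factor that varied most between rats. It stood at 6.33, 4.34, 7.26, 6.78, 7.04 and 7.29 log2 CPM in anti-mt-tRF-LeuTAA replicates 1 to 6, against 5.01, 5.90, 7.72, 7.63, 7.48 and 7.69 log2 CPM in anti-control replicates 1 to 6. Replicates 1 and 2 lay lower than replicates 3 to 6 in both groups. Replicate 1 had the higher level after silencing, by 1.33 on the log2 scale, and the other 5 replicates the lower. Over all 6 replicates the log2 fold change was -0.40 and did not pass (SE 0.59, limma adjusted p = 0.728, and 0.305 with the block). The 95% interval with the block ran from -1.04 to 0.24. In replicates 3 to 6 the log2 fold change was -0.54 (limma adjusted p = 0.0171 without and 0.000966 with the block), and leaving out replicate 1 alone gave -0.75 with the block (limma adjusted p = 0.00361). The subset of replicates 3 to 6 was chosen after the data were seen. Without anti-mt-tRF-LeuTAA replicate 2 the sign turned, to 0.03 (limma adjusted p = 0.978). The rat-to-rat SD of Mafa, 1.04 on the log2 scale, was larger than that of 94.7% of all genes.

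Among the pan-endocrine factors, Neurod1, a basic helix-loop-helix activator of insulin and of many secretory genes, had the largest fitted difference of the 9. The anti-mt-tRF-LeuTAA replicates 1 to 6 held 7.91, 7.16, 7.80, 8.05, 7.64 and 7.81 log2 CPM, against 8.66, 8.35, 8.22, 8.85, 8.06 and 8.45 log2 CPM in anti-control replicates 1 to 6. The groups did not overlap, although the highest anti-mt-tRF-LeuTAA library, replicate 4, lay just below the lowest control library, replicate 5. The log2 fold change was -0.70 with an SE of 0.16 (limma adjusted p = 0.00882) and an SE of 0.09 with the block (limma adjusted p = 0.000461). Replicates 3 to 6 gave -0.57, for which the limma adjusted p was 0.0525 without and 0.000483 with the block. Pdx1 and Neurod1 made 2 of 9 factors whose groups did not overlap in this direction, which 2.27% of all genes showed.

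Rfx6, a winged-helix factor needed for islet development and for insulin secretion, had the most even change. Its levels were 6.59, 6.31, 6.79, 6.59, 6.85 and 7.01 log2 CPM in anti-mt-tRF-LeuTAA replicates 1 to 6, against 7.01, 6.90, 7.11, 7.13, 7.25 and 7.53 log2 CPM in anti-control replicates 1 to 6. All anti-mt-tRF-LeuTAA libraries but that of replicate 6 lay below the lowest control. Within a rat the difference stayed between -0.59 and -0.33, with an SD of 0.10 over the 6 rats, the smallest of the 9 factors. The log2 fold change was -0.47 (SE 0.13, limma adjusted p = 0.0247), with an SE of 0.05 and a limma adjusted p of 0.00011 with the block. In replicates 3 to 6 it was -0.45 (limma adjusted p = 0.0358 without and 0.000468 with the block). Without the block the call of Rfx6 was lost on leaving out anti-mt-tRF-LeuTAA replicate 1 (limma adjusted p = 0.0559), anti-mt-tRF-LeuTAA replicate 4 (0.0561) or anti-control replicate 5 (0.0535).

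The remaining 4 pan-endocrine factors shared a pattern in which replicate 1 went the other way by a small amount. Pax6, a paired-domain factor required for hormone gene expression, was at 8.18, 7.50, 8.59, 8.34, 8.15 and 8.27 log2 CPM in anti-mt-tRF-LeuTAA replicates 1 to 6, against 8.11, 8.11, 8.75, 8.72, 8.57 and 8.67 log2 CPM in anti-control replicates 1 to 6. The groups overlapped and 5 of 6 rats had the lower level after silencing. The fitted log2 fold change of Pax6 was -0.32 (limma adjusted p = 0.274 without and 0.0148 with the block). With replicates 3 to 6 alone it was -0.34 (limma adjusted p = 0.0511 without and 0.00279 with the block). Leaving out replicate 5 took the blocked limma adjusted p of Pax6 to 0.0505.

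Isl1, a LIM-homeodomain factor that works with the cofactor Ldb1, stood at 6.12, 5.08, 6.86, 6.44, 6.32 and 6.44 log2 CPM in anti-mt-tRF-LeuTAA replicates 1 to 6, against 6.04, 6.13, 7.11, 6.88, 6.79 and 6.96 log2 CPM in anti-control replicates 1 to 6. Only anti-mt-tRF-LeuTAA replicate 2 lay under all controls, and 5 of 6 rats had the lower level after silencing. Isl1 had a log2 fold change of -0.44 (limma adjusted p = 0.339 without and 0.017 with the block), and in replicates 3 to 6 it was -0.42 (limma adjusted p = 0.0553 without and 0.000925 with the block). Foxa2, a forkhead factor that opens chromatin for other endodermal factors, was measured at 5.91, 5.33, 6.24, 5.89, 6.05 and 6.25 log2 CPM in anti-mt-tRF-LeuTAA replicates 1 to 6, against 5.79, 5.90, 6.35, 6.33, 6.38 and 6.51 log2 CPM in anti-control replicates 1 to 6. Again the groups overlapped and replicate 1 was the exception. Foxa2 had a log2 fold change of -0.27 (limma adjusted p = 0.340 without and 0.0345 with the block), and -0.29 in replicates 3 to 6 (limma adjusted p = 0.0744 without and 0.00917 with the block). The blocked call of Foxa2 did not survive the loss of replicate 2, 4, 5 or 6, with limma adjusted p-values of 0.0982, 0.0981, 0.0905 and 0.0759 in that order.

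Nkx2-2, a homeodomain repressor of non-β-cell genes, held 5.45, 4.60, 6.18, 5.66, 6.18 and 6.42 log2 CPM in anti-mt-tRF-LeuTAA replicates 1 to 6, against 5.21, 5.68, 6.40, 6.24, 6.41 and 6.90 log2 CPM in anti-control replicates 1 to 6. The groups overlapped, and the level was higher after silencing in replicate 1, by 0.23 on the log2 scale, and lower in the other 5. Its log2 fold change of -0.39 was not called (SE 0.33, limma adjusted p = 0.492, and SE 0.14, limma adjusted p = 0.0503 with the block). Without replicate 1 it was -0.52 with the block (limma adjusted p = 0.00547), and in replicates 3 to 6 it was -0.38 (limma adjusted p = 0.227 without and 0.00449 with the block).

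**Figure D2:**
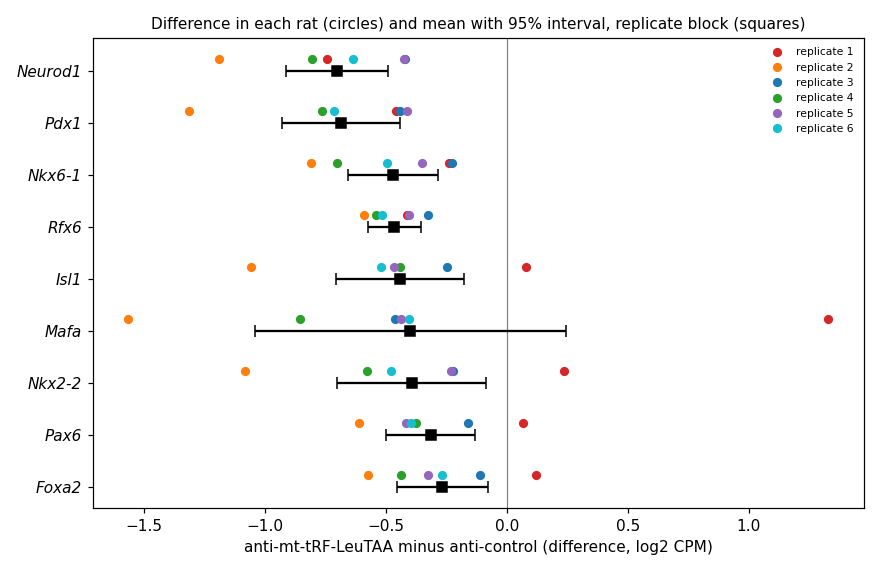
Anti-mt-tRF-LeuTAA minus anti-control level (log2 scale, horizontal axis) of each factor within each replicate number (circles), with the fitted mean and its 95% interval from the fit with the replicate block (squares, n = 6 pairs). Replicate 2 has the lowest difference for every factor and replicate 1 lies above 0 for Isl1, Mafa, Nkx2-2, Pax6 and Foxa2.

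Seen by rat, all 9 factors were lower after silencing in replicates 2, 3, 4, 5 and 6, and 4 of 9 were lower in replicate 1. The median difference over the 9 factors was 0.07 in replicate 1, -1.06 in replicate 2, -0.25 in replicate 3, -0.58 in replicate 4, -0.41 in replicate 5 and -0.50 in replicate 6 on the log2 scale. Over all genes these medians lay between -0.04 and 0.00. The 4 factors with the lower level in 6 of 6 rats were Pdx1, Nkx6-1, Neurod1 and Rfx6, a pattern that 16.6% of all genes had. An exact two-sided test that flips the sign of each pair adds nothing to this count, since any gene lower in 6 of 6 rats has p = 0.03125, the smallest p that 6 pairs allow. For the other 5 factors this exact test gave p between 0.0625 (Pax6, Isl1) and 0.406 (Mafa), with no adjustment over the 9 tests. Between the β-cell and pan-endocrine factors the medians of the log2 fold changes were -0.47 (3 genes) and -0.42 (6 genes). No test of that difference was made.

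With replicates 3 to 6 alone and the block, all 9 measured factors were called lower, beside 16.0% of all genes. Without the block 3 were called (Pdx1, Mafa and Rfx6), beside 4.0% of all genes. The genes nearest to the members' median in the 6 pairs, among 6793 genes in none of the lists and at or above the median level, were Pomgnt2, Rab3d and Large2. The root mean square distance to that median was 0.07, 0.09 and 0.09 on the log2 scale, and 0.06 (Isl1) to 0.57 (Mafa) for the members. The members themselves set this median and the 3 genes were picked as nearest to it, so these distances cannot be compared. Rab3d encodes a small GTPase of secretory vesicles, and Pomgnt2 and Large2 encode glycosyltransferases.

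The scale on which levels are read bears on these calls. The 8 pan-endocrine secretory markers (Chga, Chgb, Scg2, Scg3, Scg5, Pcsk2, Cpe, Syp) summed to 11802 to 19108 CPM in anti-mt-tRF-LeuTAA libraries and 14631 to 24179 CPM in anti-control libraries, and were lower after silencing in 5 of 6 rats. Of these 8, 3 were themselves called lower with the block, beside 17.7% of all genes: Pcsk2, a prohormone convertase, Scg2, a granin, and Syp, a vesicle membrane protein. When every library was centred on these markers, the median over all genes moved to 0.16, and 0 of the 9 factors were called by limma without the block, with 3 at an unadjusted p under 0.05. With the block, Neurod1 (-0.51, limma adjusted p = 0.0071) and Pdx1 (-0.49, limma adjusted p = 0.00717) were called lower relative to the secretory markers, beside 1.53% of all genes. On that scale Nkx6-1 was at -0.28 (limma adjusted p = 0.0563), Rfx6 at -0.27 (0.0664) and Isl1 at -0.25 (0.124). Mafa, Nkx2-2, Pax6 and Foxa2 were at -0.21, -0.20, -0.12 and -0.07. All 9 remained below 0. With quantile normalization and the block 6 of the 9 were called lower, all of the 7 but Pax6, beside 23.2% of all genes.

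**Figure D3:**
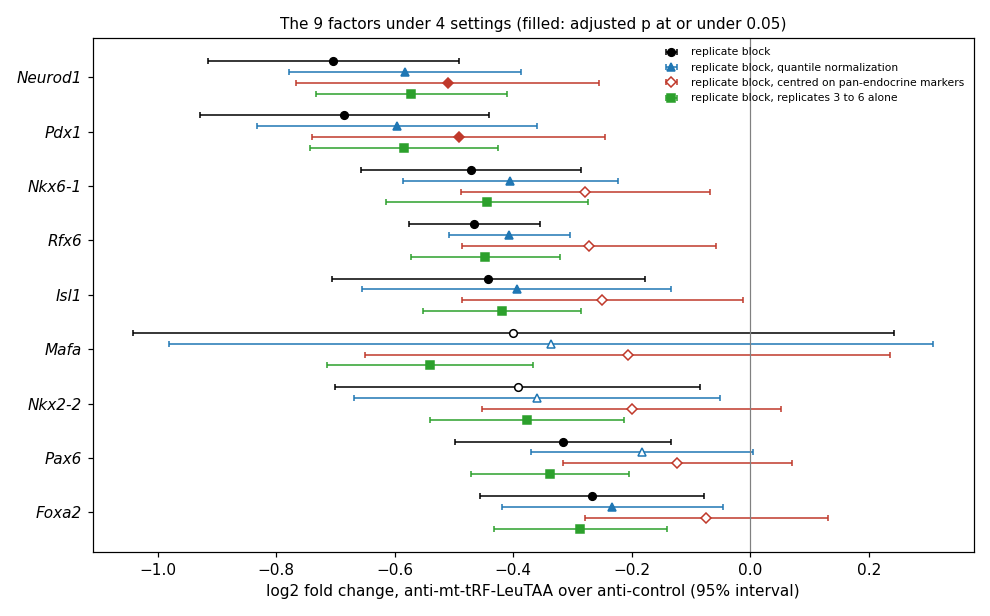
Log2 fold change of anti-mt-tRF-LeuTAA over anti-control (horizontal axis) with its 95% interval for the 9 factors under 4 settings of the fit with the replicate block. Filled symbols mark a limma adjusted p at or under 0.05. All 9 are filled in replicates 3 to 6 alone, a subset chosen after the data were seen that leaves out replicate 1. Neurod1 and Pdx1 remain filled after centring on pan-endocrine markers.

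Other cell types moved as follows, and their part in the differences of the 9 factors was not tested. With the block 17.7% of all genes were called lower and 17.6% higher, so a single call among 5 or 6 markers is near these shares. The 6 measured β-cell markers summed to 88869 to 153761 CPM in anti-mt-tRF-LeuTAA libraries and 82600.3 to 163516 CPM in anti-control libraries, higher after silencing in 2 of 6 rats. These sums include the abundant transcripts of Ins1, Ins2 and Iapp, and of the 6 markers Ucn3 was called lower with the block and 0 higher. The α-cell, δ-cell and PP-cell sums were each higher in 4 of 6 rats, and with the block 0 of their markers were called or had an unadjusted p under 0.05. The 5 ductal markers summed to 286 to 375 CPM with anti-mt-tRF-LeuTAA and 331 to 495 CPM with anti-control, lower in 6 of 6 rats, with Krt7, a keratin, called lower with the block. The 5 stromal markers summed to 446 to 2900 CPM with anti-mt-tRF-LeuTAA and 1109 to 4314 CPM with anti-control, lower in 5 of 6 rats, and 2 of them (Col1a1, Dcn) were called lower with the block. The 5 endothelial markers were higher in sum in 4 of 6 rats, and 3 of them (Kdr, Esam, Flt1) were called higher with the block. The 5 macrophage markers were higher in sum in 4 of 6 rats, at 40.3 to 80.1 CPM with anti-mt-tRF-LeuTAA and 25.0 to 107 CPM with anti-control. Among the macrophage markers Cd68 was called higher with or without the block, while Adgre1 and Aif1 were called lower with it. The 4 measured acinar markers summed to 9.86 to 23.1 CPM with anti-mt-tRF-LeuTAA and 1.86 to 32.8 CPM with anti-control. Cel, a lipase, was called higher among them, and Cpa1 and Ctrb1 were at 0 in at least 1 library. The 4 Schwann cell markers summed to 7.46 to 32.6 CPM with anti-mt-tRF-LeuTAA and 7.71 to 42.1 CPM with anti-control, and with the block 0 were called or had an unadjusted p under 0.05.

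Of the 33 other islet transcription factors listed, 28 were measured, 1 was called lower (Myt1) and 0 higher, beside 4.65% and 10.9% of all genes. With the block 5 were called lower (Myt1, Mnx1, Tshz1, Scrt1, St18) and 0 higher, also 0 higher at an unadjusted p under 0.05, beside 17.7% and 17.6% of all genes. The share called lower is thus near that of all genes, and the median of the list was -0.08. Myt1, a zinc finger factor of endocrine differentiation, had a median of 6.32 log2 CPM with anti-mt-tRF-LeuTAA (range 5.96 to 6.54) and 6.73 log2 CPM with anti-control (range 6.44 to 6.94). The groups overlapped, and 6 of 6 rats had the lower level after silencing. Its log2 fold change was -0.43 (SE 0.11, limma adjusted p = 0.0191, and 0.000211 with the block). Mnx1, a homeodomain factor that holds β-cell identity, changed by -0.32 (limma adjusted p = 0.0806, and 0.0222 with the block). Its blocked call was lost without replicate 3 (limma adjusted p = 0.0629) or replicate 6 (0.057). Tshz1, a zinc finger factor linked to Pdx1 in β-cells, was at -0.21 (limma adjusted p = 0.095, and 0.0129 with the block). Scrt1 and St18, named after their values were seen, were at -0.51 and -0.40 (limma adjusted p = 0.0208 and 0.0188 with the block). After centring on pan-endocrine markers 0 of the list were called with or without the block, and 9 had a negative and 19 a positive sign, against 19 negative before. On that scale Myt1 was at -0.24, Mnx1 at -0.12 and Tshz1 at -0.0168 (limma adjusted p = 0.143, 0.555 and 0.925 with the block).

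Neurog3, which starts endocrine differentiation in the embryo, was near the limit of detection, with medians of -0.52 log2 CPM with anti-mt-tRF-LeuTAA and -0.15 log2 CPM with anti-control and 0 reads in at least 1 library of each group. It was not called (log2 fold change -0.11, SE 0.94, limma adjusted p = 0.957, and 0.811 with the block), except with the block and quantile normalization, where it was at -1.20 (limma adjusted p = 0.0246).

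The 6 listed inhibitors of the endocrine program had fold changes of the opposite sign, with 0 called without the block and 5 called higher with it. The Id proteins bind the partners of basic helix-loop-helix factors such as Neurod1 and keep them off DNA, Hes1 is the Notch target that represses endocrine fate, and Rest silences neuronal and endocrine genes. All 6 were measured and had a positive log2 fold change under each scaling tried, with a median of 0.67. Without the block 0 were called by limma or limma-voom, with 2 (Id1, Id2) at an unadjusted p under 0.05 in limma, and with the block 5 were called higher (Id1, Id2, Id3, Id4, Hes1). Of all genes, 10.9% were called higher without and 17.6% with the block. Id1 was at a median of 6.17 log2 CPM with anti-mt-tRF-LeuTAA (range 5.19 to 6.99) and 4.88 log2 CPM with anti-control (range 4.06 to 6.14). The groups overlapped, and Id1 was higher after silencing in 6 of 6 rats. Its log2 fold change was 1.12, with an SE of 0.38 without the block (limma adjusted p = 0.0659) and 0.09 with it (limma adjusted p = 1.5e-05). Within each group Id1 was highest in replicates 1 and 2, at 6.78 and 6.99 log2 CPM with anti-mt-tRF-LeuTAA and 5.99 and 6.14 log2 CPM with anti-control, the libraries that also had the highest endothelial sums. Those sums were higher after silencing in 4 of 6 rats, with Kdr, Esam and Flt1 called higher with the block. Without these libraries, in replicates 3 to 6, Id1 was at 1.27 (limma adjusted p = 0.0124 without and 7.7e-06 with the block). The endothelial sums of replicates 3 to 6 were 111, 266, 150 and 53.4 CPM with anti-mt-tRF-LeuTAA. With anti-control they were 126, 181, 123 and 30.4 CPM, so these sums still differed between the groups. The part of endothelial RNA in the levels of the inhibitors was not tested. Id2 was 1.68-fold higher (log2 fold change 0.75, limma adjusted p = 0.105, and 0.000119 with the block) and Id3 1.25-fold higher (log2 fold change 0.32, limma adjusted p = 0.255, and 0.00345 with the block), each in 6 of 6 rats. Id4 and Hes1 were at 0.86 and 0.59 (limma adjusted p = 0.0323 and 0.0227 with the block), and Rest was at 0.16 and not called (0.231 with the block). The count with the block was 4 in replicates 3 to 6, beside 16.8% of all genes, and 5 after centring on pan-endocrine markers, beside 20.8%.

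Of 14 listed partners and cofactors, 13 were measured, with 1 called lower (Hdac1) and 1 higher (Crebbp), beside 4.65% and 10.9% of all genes. With the block 5 were called lower (Hdac1, Tcf3, Ssbp3, Ldb1, Meis2), beside 17.7% of all genes, and Crebbp alone higher, a smaller share than the 17.6% of all genes. Crebbp, an acetyltransferase coactivator, was at 6.46 to 6.85 log2 CPM with anti-mt-tRF-LeuTAA and 5.90 to 6.32 log2 CPM with anti-control, so the groups did not overlap. Its log2 fold change was 0.61 (SE 0.09, limma adjusted p = 0.000248, and 2.2e-05 with the block). Hdac1, a deacetylase of repressor complexes, was at 6.09 to 6.54 log2 CPM with anti-mt-tRF-LeuTAA and 6.47 to 6.81 log2 CPM with anti-control, with a log2 fold change of -0.33 (limma adjusted p = 0.0173, and 0.00077 with the block). Tcf3, which encodes the E proteins that pair with Neurod1, was at 4.52 to 4.94 log2 CPM with anti-mt-tRF-LeuTAA and 4.82 to 5.30 log2 CPM with anti-control. Tcf3 had a log2 fold change of -0.30, lower in 6 of 6 rats (limma adjusted p = 0.0509, and 0.00594 with the block). Ldb1 and its stabilizer Ssbp3, which act with Isl1, were at -0.26 and -0.27 (limma adjusted p = 0.00804 and 0.00322 with the block). After centring on pan-endocrine markers with the block, 0 partners were called lower, with Hdac1 at -0.14 and Tcf3 at -0.11 (limma adjusted p = 0.347 and 0.605), and Crebbp was called higher.

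Of 13 listed target genes of the factors, 12 were measured, 1 was called lower (Gjd2) and 0 higher, and 4 were called lower with the block (Gjd2, Ucn3, Ero1b, Glp1r). The background was 4.65% of all genes lower and 10.9% higher without the block and 17.7% lower with it. A single call among 12 without the block is near the share of all genes, and 4 among 12 with it is a larger share. In replicates 3 to 6, chosen after the data were seen, 8 were called lower with the block, beside 16.0% of all genes. Without the block 3 were called lower there, beside 4.0%. After centring on pan-endocrine markers with the block it was 3, beside 1.53%. The insulin genes were not called in either fit of all 6 replicates. Gjd2, which encodes the gap junction protein that couples β-cells, was at a median of 6.01 log2 CPM with anti-mt-tRF-LeuTAA and 6.56 log2 CPM with anti-control, and lower in 6 of 6 rats. Its log2 fold change was -0.41 (limma adjusted p = 0.0422, and 0.0065 with the block), and without the block the call of Gjd2 was lost in 10 of the 12 fits that each left out 1 library (limma adjusted p between 0.0543 and 0.0899). The exceptions were the fits without anti-mt-tRF-LeuTAA replicate 3 (0.0161) and without anti-control replicate 5 (0.00815). Gjd2 was at -0.27 in replicates 3 to 6 (limma adjusted p = 0.298 without and 0.0117 with the block), and after centring on pan-endocrine markers it was at -0.22 and not called (0.246 with the block). Ucn3, a peptide of mature β-cells, was at 7.04 to 8.14 log2 CPM with anti-mt-tRF-LeuTAA and 7.88 to 8.76 log2 CPM with anti-control. It was lower in 6 of 6 rats, by -0.70 on the log2 scale (SE 0.22, limma adjusted p = 0.0506, and 0.00185 with the block), and passed without the block when anti-mt-tRF-LeuTAA replicate 6 (0.0262), anti-control replicate 1 (0.0422) or anti-control replicate 2 (0.0421) was left out. In replicates 3 to 6 Ucn3 was at -0.75 (limma adjusted p = 0.0758 without and 0.0031 with the block). After centring on pan-endocrine markers it was at -0.50 (limma adjusted p = 0.0438 without and 0.00355 with the block). Ero1b, an oxidase of the endoplasmic reticulum that helps proinsulin fold, was at -0.62 (limma adjusted p = 0.254, and 0.036 with the block). The blocked call of Ero1b held without replicate 1 (limma adjusted p = 0.000344) and was lost without any of the other 5 replicates (0.0663 to 0.106) and with quantile normalization, at -0.28 (0.227). In replicates 3 to 6 Ero1b was at -0.81 (limma adjusted p = 0.0267 without and 0.00155 with the block). After centring on pan-endocrine markers it was at -0.42 (limma adjusted p = 0.311 without and 0.0353 with the block). Glp1r, the receptor for the incretin GLP-1, was at -0.56 (limma adjusted p = 0.296, and 0.0153 with the block).

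For Ins1, Ins2 and Iapp, the hormone genes of β-cells, the log2 fold changes were 0.08, 0.04 and 0.01, with limma adjusted p-values of 0.969, 0.975 and 0.982 without the block and 0.916, 0.940 and 0.963 with it. Ins1 and Ins2 were lower in 3 and 4 of 6 rats and Iapp in 3 of 6. In replicates 3 to 6 alone the signs turned, to -0.11, -0.30 and -0.0021, again with no call. The spread was wide for Ins1, with a blocked SE of 0.50, so the fits set only broad limits on it.

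**Figure D4:**
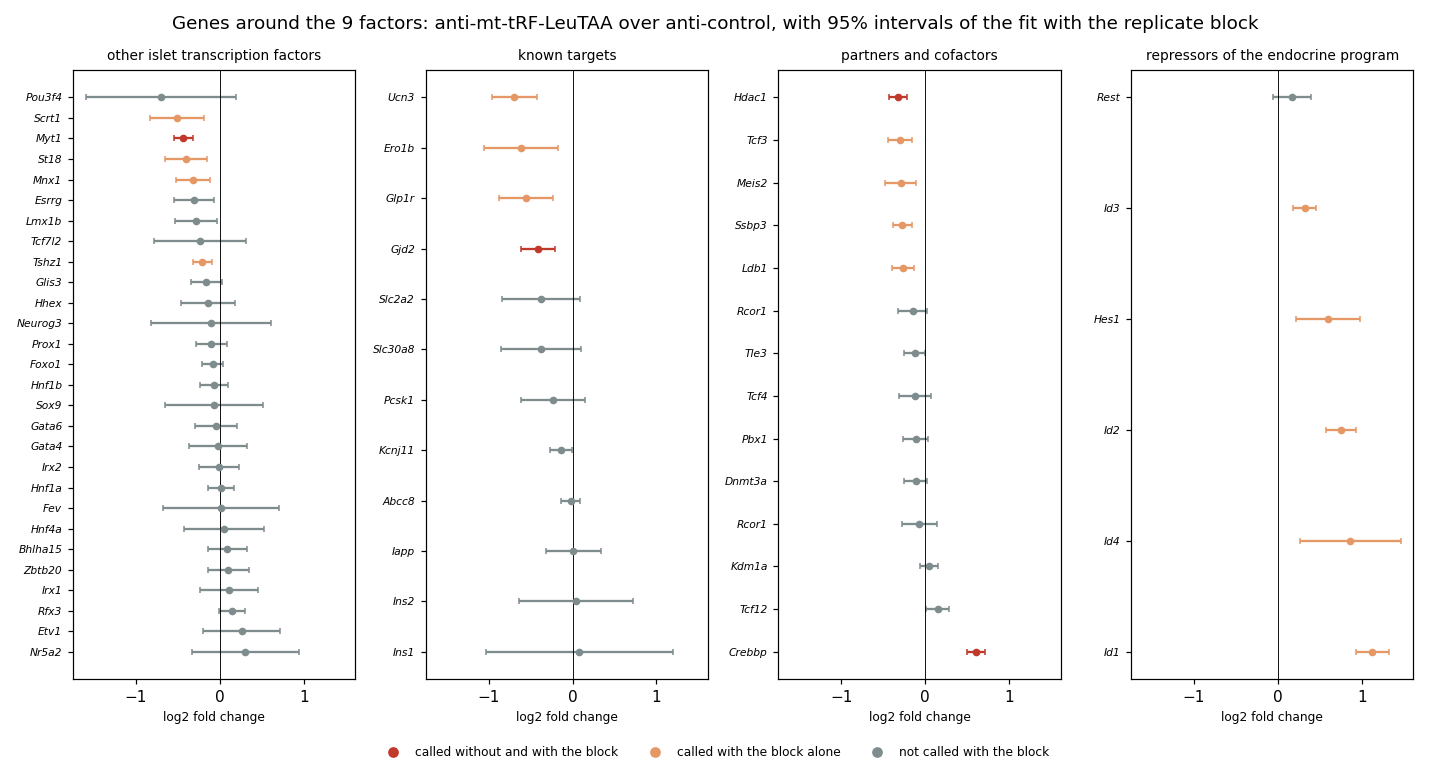
Log2 fold change of anti-mt-tRF-LeuTAA over anti-control (horizontal axes) with 95% intervals of the fit with the replicate block, for 28 other islet transcription factors, 12 targets, 13 partners and cofactors (Rcor1 has an entry for each of its 2 gene IDs) and 6 repressors. Red marks genes called without and with the block (Myt1, Gjd2, Hdac1, Crebbp), orange those called with it alone and grey those not called with it, and the repressors lie to the right of 0.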

How the data were processed

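Total RNA of 12 samples was sequenced after stranded library preparation. The authors deposited levels of 13733 detected genes as log2 CPM, that is, log2 of reads per M (mega) reads, after a prior count near 1 that depends on the size of the library had been added, beside columns of their own fold changes and p-values, which were not used. Build Rnor_6.0 and the tools limma 3.44.3, edgeR 3.30.3 and R 4.0.3, with HTSeq 0.9.1, STAR 2.5.3a and cutadapt 1.8, are named in the submitters' processing notes, with no role for each. Whole reads were recovered from all values, within 5.5e-08 of a whole number, and gave 16.4 to 23.4 M reads per library on listed genes. Their number limits precision, and the member with the fewest reads in a library (Mafa) still had 350.

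Levels were fitted with limma 3.58.1 (intensity trend, R 4.3.3) over all genes, without a block as the main model, since the sources used here do not state in words the model of the study's own fit. Adjusted p-values are Benjamini-Hochberg over all 13733 genes. Fold changes are on the log2 CPM scale with the deposited prior, which understates changes of low genes. Both fits were run on simulated data without differences between rats, so this does not show how the block performs on paired libraries. The study's methods state that each N is the islets of a single rat, for 6 rats. Libraries of the same replicate number deviated together from their group means, with correlations of 0.474 to 0.763, and 6 of 6 anti-mt-tRF-LeuTAA and 5 of 6 anti-control libraries correlated best with their own number, so the numbers were taken to pair the libraries and the blocked value is printed beside each result. P-values of the blocked fit and of the exact sign-flip test rest on the 6 rats as pairs. The fit without the block treats the 12 libraries as independent and ignores this pairing.

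Alternatives were other scalings, priors, level filters, limma-voom, and leaving out each library or replicate number. Replicates 3 to 6 alone, and the block with quantile normalization or with centring on markers, were added after the data were seen. The members and lists were chosen with earlier results of these data known. Named genes are all members, from each other list the 3 with the smallest unadjusted p, Neurog3, Ins1, Ins2 and Iapp, and the 3 genes nearest to the members' median pair differences. Other genes are named to spell out a count. A few listed genes are not reported here and were left out of the lists and their counts. Promoters are from RefSeq (GRCr8), whose coordinates differ from those of the table. Figures were drawn with matplotlib.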

Additional observations from a re-analysis of the deposited data

Results flagged for a closer look

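In groups of 6, a highest or lowest library was singled out when its gap to the nearest other, as a share of the range of its group, exceeded the 95% critical value of Dixon's test, which chance gives in about 1 of 20 groups. Of 56 groups tested (28 genes in 2 groups), 2 had such a library. Pdx1 was at 6.33 log2 CPM in anti-mt-tRF-LeuTAA replicate 2, with a gap of 0.66 of the range. Mafa was at 4.34 log2 CPM in the same library, with a gap of 0.68.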

How the results depend on the processing

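The fewest reads of a member in a library were 350 (Mafa), while Neurog3 had 0 reads in some libraries, where depth limits its fit. With the replicate block the counts of genes called were 7 members lower, 2431 of all genes lower and 2412 higher, 5 other islet transcription factors, 4 targets and 5 partners lower, and 5 repressors higher, with Nkx6-1 (-0.47), Pax6 (-0.32), Isl1 (-0.44) and Foxa2 (-0.27) passing with it. Centred on pan-endocrine markers without the block, 0 members were called, with Pdx1 at -0.49, Neurod1 at -0.51 and Rfx6 at -0.27, beside 7 genes lower and 988 higher, 0 other transcription factors and 0 partners lower and 0 partners higher. With this centring and the block the counts were 2 members (Rfx6 was lost at -0.27), 210 genes lower and 2850 higher, 0 other factors, 3 targets and 0 partners lower, and 5 repressors higher. With the block and quantile normalization they were 6 members, 3190 genes lower and 2501 higher, 6 other factors and 3 targets lower, 1 target higher, 5 partners lower and 2 higher, and 4 repressors higher, with Nkx6-1 at -0.40, Isl1 at -0.39 and Foxa2 at -0.23. In replicates 3 to 6 with the block they were 9 members, 2196 genes lower and 2314 higher, 6 other factors, 8 targets and 5 partners lower, and 4 repressors higher, with Nkx6-1 at -0.44, Mafa at -0.54, Nkx2-2 at -0.38, Pax6 at -0.34, Isl1 at -0.42 and Foxa2 at -0.29. Without the block those 4 replicates gave 2 other factors and 3 targets lower and 1 repressor higher, passed Mafa (-0.54) and lost Neurod1 (-0.57).

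Scaling by library size alone gave 294 genes, 0 targets and 0 partners lower. Scaling without the 50 most abundant genes gave 296 genes, 0 other factors, 0 targets and 0 partners lower, 2 partners and 1 repressor higher, and lost Rfx6 (-0.39). Quantile normalization without the block gave 0 targets and 2 partners lower and 1 repressor higher, limma without trend 0 targets lower, limma-voom 2 partners lower, and genes at or above the median level 485 genes higher. Uncalled values that turned sign were those of Neurog3 (0.0816 centred on markers, with or without the block) and, in replicates 3 to 6, Ins1 (-0.11), Ins2 (-0.30) and Iapp (-0.0021). The cause of these shifts was not tested.

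When single libraries or, with the block, single replicate numbers were left out, the log2 fold changes ran from -0.60 to -0.32 (Nkx6-1), -0.78 to 0.034 (Mafa), -0.53 to -0.39 (Rfx6), -0.58 to -0.16 (Nkx2-2), -0.40 to -0.18 (Pax6), -0.57 to -0.22 (Isl1), -0.35 to -0.14 (Foxa2), -0.73 to 0.49 (Neurog3), -0.0602 to 0.16 (Ins1), -0.19 to 0.20 (Ins2) and -0.0446 to 0.0907 (Iapp). Without the block, leaving out 1 library gave 2 to 3 members, 445 to 718 genes and 1 to 2 other factors lower. It gave 0 to 1 targets and 1 to 2 partners lower, and 1283 to 1480 genes, 1 partner and 0 to 2 repressors higher. With the block, leaving out 1 replicate number gave 5 to 9 members, 1734 to 2646 genes and 2 to 8 other factors lower. Targets lower then ran from 2 to 8 and partners lower from 4 to 5. Genes higher ran from 1964 to 2531, partners higher from 1 to 2 and repressors higher from 3 to 5. Each highest count with the block was reached without replicate 1. Prior counts of 0.25 and 5 changed no call of a member.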
